A study of Mus musculus with 6 samples.

Results

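Endothelial junction and identity genes encode the proteins by which cells of the vessel lining hold to one another and by which they are recognised. The genes described here are Pecam1, Cdh5, Esam, Cldn5, Robo4, Tie1, Emcn, Plvap, Egfl7 and Mmrn2, chosen by symbol, and they make up 10 of the 28368 genes in the count table. Whole mouse tumours gave 6 libraries of polyadenylated RNA, 3 treated and 3 control. The treated mice had been on MS-DF-MS therapy for 12 h, and the control mice had no treatment. The series is concerned with how the pathway from STING, the adaptor of cytosolic DNA sensing, to interferon-beta becomes active in tumours, and with depots placed there. Neither drug, tumour type, mouse strain nor age is named in the labels. No group with an empty depot was analysed here, so the effects of the drugs and of the implant cannot be told apart. Whether libraries of a group came from different animals is not stated, so p-values cover only the spread among these libraries, part of which may be technical.

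Endothelial cells join at adherens junctions, built on VE-cadherin and its catenins, and at tight junctions, built on claudins and immunoglobulin-type adhesion proteins. These contacts set how easily fluid, solutes and leukocytes leave a vessel, and in tumours they are often irregular and leaky. Receptors such as ROBO4 and TIE1, the surface glycoproteins endomucin and PLVAP, and secreted matrix proteins such as EGFL7 and multimerin-2 are further features by which the lining is told from other cells of a tumour.

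Libraries held 57017043 to 66634551 counts, and 22071 to 22831 genes had at least 1 count. Of 18049 genes that passed the filter on low counts, 246 rose and 45 fell in treated tumours at an adjusted p under 0.05 (edgeR's quasi-likelihood F test, Benjamini-Hochberg over all genes tested). On the first principal component of log2 CPM (counts scaled by library size with TMM factors), treated library 3 stood apart at 72.9, and the other 5 libraries lay between -37.9 and 13.3. A list of 10 pigment cell genes summed to 22743 to 24740 CPM in treated tumours, against 22136 to 24439 CPM in control tumours, while the 10 endothelial genes summed to 220 to 238 CPM in treated tumours, against 116 to 125 CPM in control tumours. All 10 endothelial genes had counts in every library, the lowest being 74 for Cldn5 in control library 1, and all 10 passed the filter. Both sums are of CPM, which is not corrected for gene length.

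The endothelial genes were higher in treated tumours as a group, and most of them passed the test. They were chosen with earlier results of these data known, so the shares of all genes beside them are given as a description. Pecam1, Cdh5, Robo4, Esam, Tie1, Emcn and Plvap rose, which is 7 of 10, while Cldn5, Egfl7 and Mmrn2 did not pass the threshold. None fell, by edgeR, DESeq2 or limma-voom. Of all tested genes, 1.36% were called higher. DESeq2 called 9 of the 10 higher, beside 4.18% of all genes, and limma-voom called 7, beside 1.21%, or 9 with sample quality weights, beside 3.33%. The median log2 fold change of the 10 genes was 0.93, beside -0.003 over all genes tested. In 9 of the 10, every one but Cldn5, the 3 treated libraries all lay above the 3 controls, which was so of 12% of all tested genes. These are whole-tumour libraries, in which a larger number of endothelial cells and more RNA per endothelial cell cannot be told apart. Without treated library 3, the library that stood apart, the same count of 7 was called, beside 1.64% of all genes. It fell to 3 without treated library 2 or without control library 2, beside 0.64% and 0.50% of all genes. It was 4 without control library 1 or 3, beside 0.68% and 0.60%, and 5 without treated library 1, beside 1.24%. Pecam1, Cdh5 and Robo4 were called in all 6 of these fits.

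**Figure D1:**
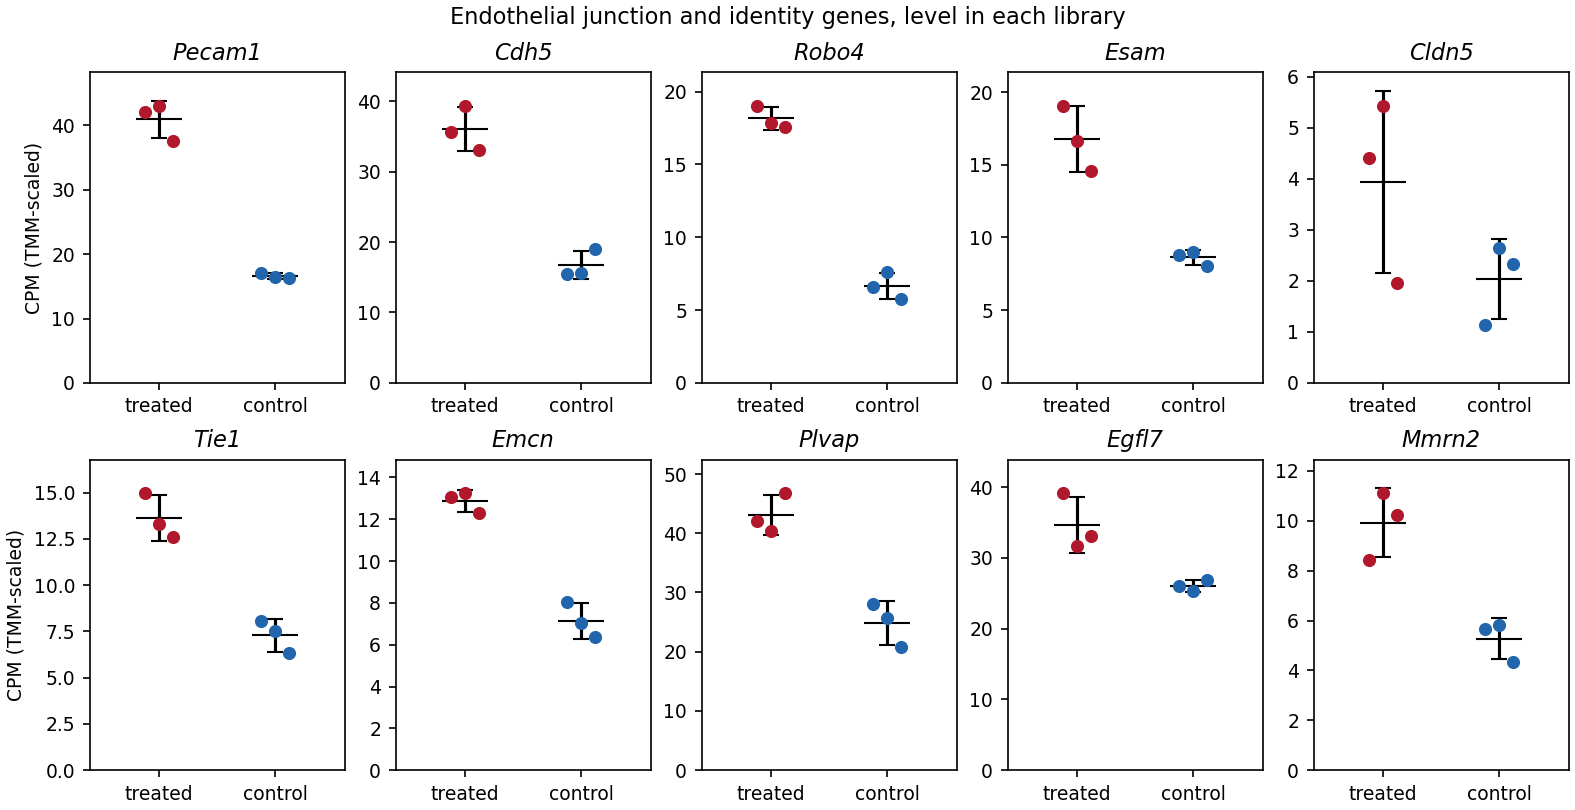
TMM-scaled CPM of each of the 10 genes in every library (points), with the group mean (line) and SD (bars, n = 3), treated left of control and each vertical axis starting at 0. The groups are apart in 9 panels, and in that of Cldn5 treated library 3 at 1.96 CPM lies below control libraries 2 and 3.

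The promoters are shown for the genes called higher that RefSeq covered here, Robo4, Emcn and Tie1, beside that of Cldn5, which was not called, so that the letters around their starts can be compared. Each window runs from 250 bases before to 50 bases after a RefSeq start (GRCm38.p6), 5′ to 3′ on the gene's strand, and capitals mark the 5-letter ETS cores AGGAA and CGGAA on either strand. ETS factors, ERG and FLI1 among them, are transcription factors known for their part in endothelial gene expression. The windows are at chr9:37401722-37402021 (plus strand) for Robo4, chr3:137340828-137341127 (plus strand) for Emcn, chr4:118489800-118490099 (minus strand) for Tie1 and chr16:18776597-18776896 (plus strand) for Cldn5.
Robo4: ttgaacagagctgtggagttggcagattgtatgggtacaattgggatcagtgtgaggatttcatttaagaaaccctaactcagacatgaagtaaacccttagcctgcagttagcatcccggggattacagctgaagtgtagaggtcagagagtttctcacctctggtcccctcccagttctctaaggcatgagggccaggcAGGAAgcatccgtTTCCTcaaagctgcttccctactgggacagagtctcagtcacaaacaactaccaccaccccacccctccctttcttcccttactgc
Emcn: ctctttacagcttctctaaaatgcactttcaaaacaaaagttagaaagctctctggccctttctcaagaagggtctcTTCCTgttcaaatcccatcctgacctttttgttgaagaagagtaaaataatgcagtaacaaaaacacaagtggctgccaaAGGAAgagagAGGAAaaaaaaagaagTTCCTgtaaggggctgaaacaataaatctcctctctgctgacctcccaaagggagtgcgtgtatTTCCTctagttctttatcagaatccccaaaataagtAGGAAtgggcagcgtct
Tie1: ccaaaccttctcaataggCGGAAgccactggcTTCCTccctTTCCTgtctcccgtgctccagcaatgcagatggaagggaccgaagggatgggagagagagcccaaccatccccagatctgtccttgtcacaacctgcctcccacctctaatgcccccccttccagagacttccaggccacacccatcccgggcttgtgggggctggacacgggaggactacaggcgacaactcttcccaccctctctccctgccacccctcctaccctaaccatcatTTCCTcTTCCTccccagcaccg
Cldn5: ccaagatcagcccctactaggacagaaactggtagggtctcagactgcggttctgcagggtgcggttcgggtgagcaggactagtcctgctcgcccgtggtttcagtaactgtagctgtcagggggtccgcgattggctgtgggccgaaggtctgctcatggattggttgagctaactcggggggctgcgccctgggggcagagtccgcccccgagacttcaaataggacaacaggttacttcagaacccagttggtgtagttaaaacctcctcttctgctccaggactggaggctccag

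The Robo4 window held 2 AGGAA cores on opposite strands, with their left ends at positions -49 and -36 from the start. The Emcn window held 6, from position -173 to position 34. Tie1 had 4, of which 2 lay after the start, and 1 CGGAA core. Cldn5 had neither core, and the 3 windows of Egfl7 held 4, 2 and 0 AGGAA cores. AGGAA occurred in 66.6% and CGGAA in 30.1% of all 32544 RefSeq windows of 300 bases, so a match to AGGAA is usual for a window of this length. The interferon-stimulated response element (GAAA, any 2 bases, GAAA) occurred in 3.45% of all windows and the interferon-gamma activated site (TTC, any 3 bases, GAA) in 8.33%, and neither was found on either strand of the 7 windows that matched 5 of the 10 genes. Pecam1, Cdh5, Esam, Plvap and Mmrn2 were not matched. A match is a description of the letters and says nothing of binding.

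**Figure D2:**
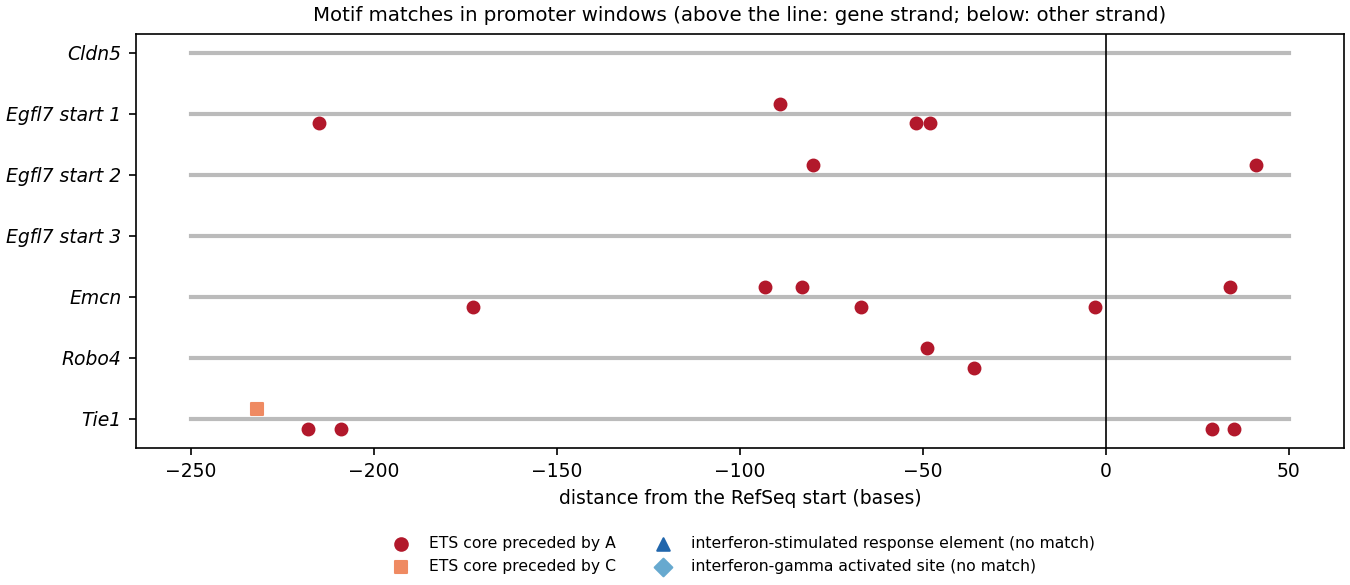
Positions of ETS cores in the 7 promoter windows, as distance in bases from the RefSeq start (vertical line at 0), above each grey line for the gene's strand and below it for the other strand. Emcn carries 6 matches, Robo4 2 within 50 bases before the start, and Cldn5 and the Egfl7 window furthest downstream carry none.

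Of the adhesion genes of the junction, Pecam1, Cdh5 and Esam rose and Cldn5 did not pass. Pecam1 (ENSMUSG00000020717, chromosome 11, 106654217 to 106750628, minus strand) encodes PECAM-1, an immunoglobulin-type protein that binds itself across endothelial contacts and is also carried by platelets and many leukocytes. It stood at 42.1, 43.1 and 37.6 CPM in treated libraries 1, 2 and 3 and at 17.1, 16.5 and 16.3 CPM in control libraries 1, 2 and 3. All treated libraries were high and the controls lay within 1 CPM of each other. Its level was 2.46-fold higher (95% interval 2.15 to 2.82; log2 fold change 1.30 ± 0.09 SE, edgeR adjusted p = 0.000348), and it ranked 20 of 18049 genes by p.

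Cdh5 (ENSMUSG00000031871, chromosome 8, 104101625 to 104144511, plus strand) encodes VE-cadherin, the cadherin that carries the endothelial adherens junction. Cdh5 stood at 35.7, 39.4 and 33.1 CPM in treated libraries 1, 2 and 3 and at 15.5, 15.7 and 19.0 CPM in control libraries 1, 2 and 3. The lowest treated library was well above the highest control. The level was 2.16-fold higher (95% interval 1.79 to 2.59; log2 fold change 1.11 ± 0.12 SE, edgeR adjusted p = 0.00295). Its adjusted p stayed at or under 0.0316 with any single library left out.

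Esam (ENSMUSG00000001946, chromosome 9, 37528078 to 37538319, plus strand) encodes an immunoglobulin-type adhesion protein of endothelial tight junctions, found also on platelets. Esam stood at 19.1, 16.7 and 14.6 CPM in treated libraries 1, 2 and 3 and at 8.82, 9.02 and 8.07 CPM in control libraries 1, 2 and 3. The treated libraries were more spread than the controls, without overlap. It rose 1.94-fold (95% interval 1.57 to 2.41; log2 fold change 0.96 ± 0.13 SE, edgeR adjusted p = 0.0153). The call was lost without treated library 2 and without each of the 3 controls, with an adjusted p of up to 0.0981.

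Cldn5 (ENSMUSG00000041378, chromosome 16, 18776847 to 18778262, plus strand), a gene of 1 exon, encodes claudin-5, the sealing claudin of endothelial tight junctions and best known from the blood-brain barrier. Its counts were 288, 350 and 130 in treated libraries 1, 2 and 3 and 74, 170 and 133 in control libraries 1, 2 and 3, or 4.41, 5.44 and 1.96 CPM in treated and 1.14, 2.64 and 2.33 CPM in control libraries. Treated libraries 1 and 2 were above all controls, treated library 3 was below control libraries 2 and 3, and control library 1 was the lowest of all. The log2 fold change of 0.95 ± 0.44 SE was near that of Esam, but its interval reached from 0.956-fold to 3.89-fold and it did not pass (edgeR adjusted p = 0.341). Its coefficient of variation was 45.4% over treated and 38.8% over control libraries, against 5.35 to 11.6% from counting alone. Without treated library 3 the adjusted p was 0.157, and over all alternatives it lay between 0.157 and 0.621. A p that misses the threshold does not show that Cldn5 was at the same level in both groups.

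Of the endothelial receptors, Robo4 showed the largest fold change of the 10 genes. Robo4 (ENSMUSG00000032125, chromosome 9, 37401897 to 37415115, plus strand) encodes an endothelial receptor of the Roundabout family, known for its part in vessel stability. Robo4 stood at 19.0, 17.8 and 17.6 CPM in treated libraries 1, 2 and 3 and at 6.58, 7.59 and 5.79 CPM in control libraries 1, 2 and 3. All treated libraries were at least 10 CPM above every control. It rose 2.73-fold (95% interval 2.20 to 3.38; log2 fold change 1.45 ± 0.13 SE, edgeR adjusted p = 0.0017). Robo3, which lies 554 bp away on the opposite strand, had a log2 fold change of -0.40 at an edgeR adjusted p of 0.735.

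Tie1 (ENSMUSG00000033191, chromosome 4, 118471191 to 118490061, minus strand) encodes a receptor tyrosine kinase that works beside TIE2 in angiopoietin signalling. Tie1 stood at 15.0, 13.3 and 12.6 CPM in treated libraries 1, 2 and 3 and at 8.05, 7.52 and 6.31 CPM in control libraries 1, 2 and 3. The groups did not overlap. It rose 1.87-fold (95% interval 1.48 to 2.35; log2 fold change 0.90 ± 0.14 SE, edgeR adjusted p = 0.0245). The call was kept without treated library 3 and lost without any of the other 5 libraries, with an adjusted p of up to 0.141.

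The genes of the surface glycoproteins rose less than Pecam1, Cdh5 and Robo4 by their point estimates, and the differences between genes were not tested. Emcn (ENSMUSG00000054690, chromosome 3, 137341067 to 137432185, plus strand) encodes endomucin, a sialomucin of capillary and venous endothelium that hinders leukocyte adhesion. Emcn stood at 13.1, 13.3 and 12.3 CPM in treated libraries 1, 2 and 3 and at 8.05, 7.02 and 6.35 CPM in control libraries 1, 2 and 3. Treated libraries were close to each other and above every control. It rose 1.80-fold (95% interval 1.45 to 2.24; log2 fold change 0.85 ± 0.14 SE, edgeR adjusted p = 0.0247). This call too was kept without treated library 3 and lost without any of the other 5 libraries, with an adjusted p of up to 0.16.

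Plvap (ENSMUSG00000034845, chromosome 8, 71497765 to 71511752, minus strand) encodes the protein of the diaphragms that span fenestrae and caveolae of permeable vessels. Plvap stood at 42.1, 40.3 and 46.8 CPM in treated libraries 1, 2 and 3 and at 28, 25.7 and 20.9 CPM in control libraries 1, 2 and 3. Treated library 3 was the highest, unlike in the junction and receptor genes, where it was the lowest of the treated libraries. Plvap rose 1.73-fold (95% interval 1.43 to 2.10; log2 fold change 0.79 ± 0.12 SE, edgeR adjusted p = 0.02), and the call was lost without treated library 2 (adjusted p = 0.0655) and without control library 2 (adjusted p = 0.118). Its span overlaps 1819 bp of Gtpbp3 on the opposite strand. Gtpbp3 had a log2 fold change of 0.16 at an edgeR adjusted p of 0.594, and whether counting used strand is not given in the sources used here.

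The genes of the secreted proteins, Egfl7 and Mmrn2, were higher in every treated library than in every control, and neither passed the threshold. Egfl7 (ENSMUSG00000026921, chromosome 2, 26580014 to 26592684, plus strand) encodes a matrix-bound protein that guides the forming vessel tube, and its span holds the gene of the endothelial microRNA miR-126. Egfl7 stood at 39.2, 31.6 and 33.2 CPM in treated libraries 1, 2 and 3 and at 26, 25.3 and 26.9 CPM in control libraries 1, 2 and 3. It was the least raised of the 10 by point estimate, 1.33-fold (95% interval 1.14 to 1.56; log2 fold change 0.41 ± 0.10 SE, edgeR adjusted p = 0.0974). DESeq2 called it (adjusted p = 0.00965), as did limma-voom with sample quality weights (adjusted p = 0.0392). Mir126a had 1 count in treated library 1 and 1 in control library 3 and none in the other libraries, which were made from polyadenylated RNA, so no comparison of it was made.

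Mmrn2 (ENSMUSG00000041445, chromosome 14, 34375465 to 34404287, plus strand) encodes multimerin-2, an endothelial matrix glycoprotein that binds the surface proteins CLEC14A and CD93. Mmrn2 stood at 8.41, 11.1 and 10.2 CPM in treated libraries 1, 2 and 3 and at 5.65, 5.84 and 4.33 CPM in control libraries 1, 2 and 3. The lowest treated library was above the highest control. The estimate was 1.88-fold, close to that of Tie1, with a wider interval (1.41 to 2.51; log2 fold change 0.91 ± 0.18 SE, edgeR adjusted p = 0.057). It passed by DESeq2 (adjusted p = 0.000282), by limma-voom with sample quality weights (adjusted p = 0.0163) and among genes with at least 50 counts in 3 libraries (edgeR adjusted p = 0.0453).

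**Figure D3:**
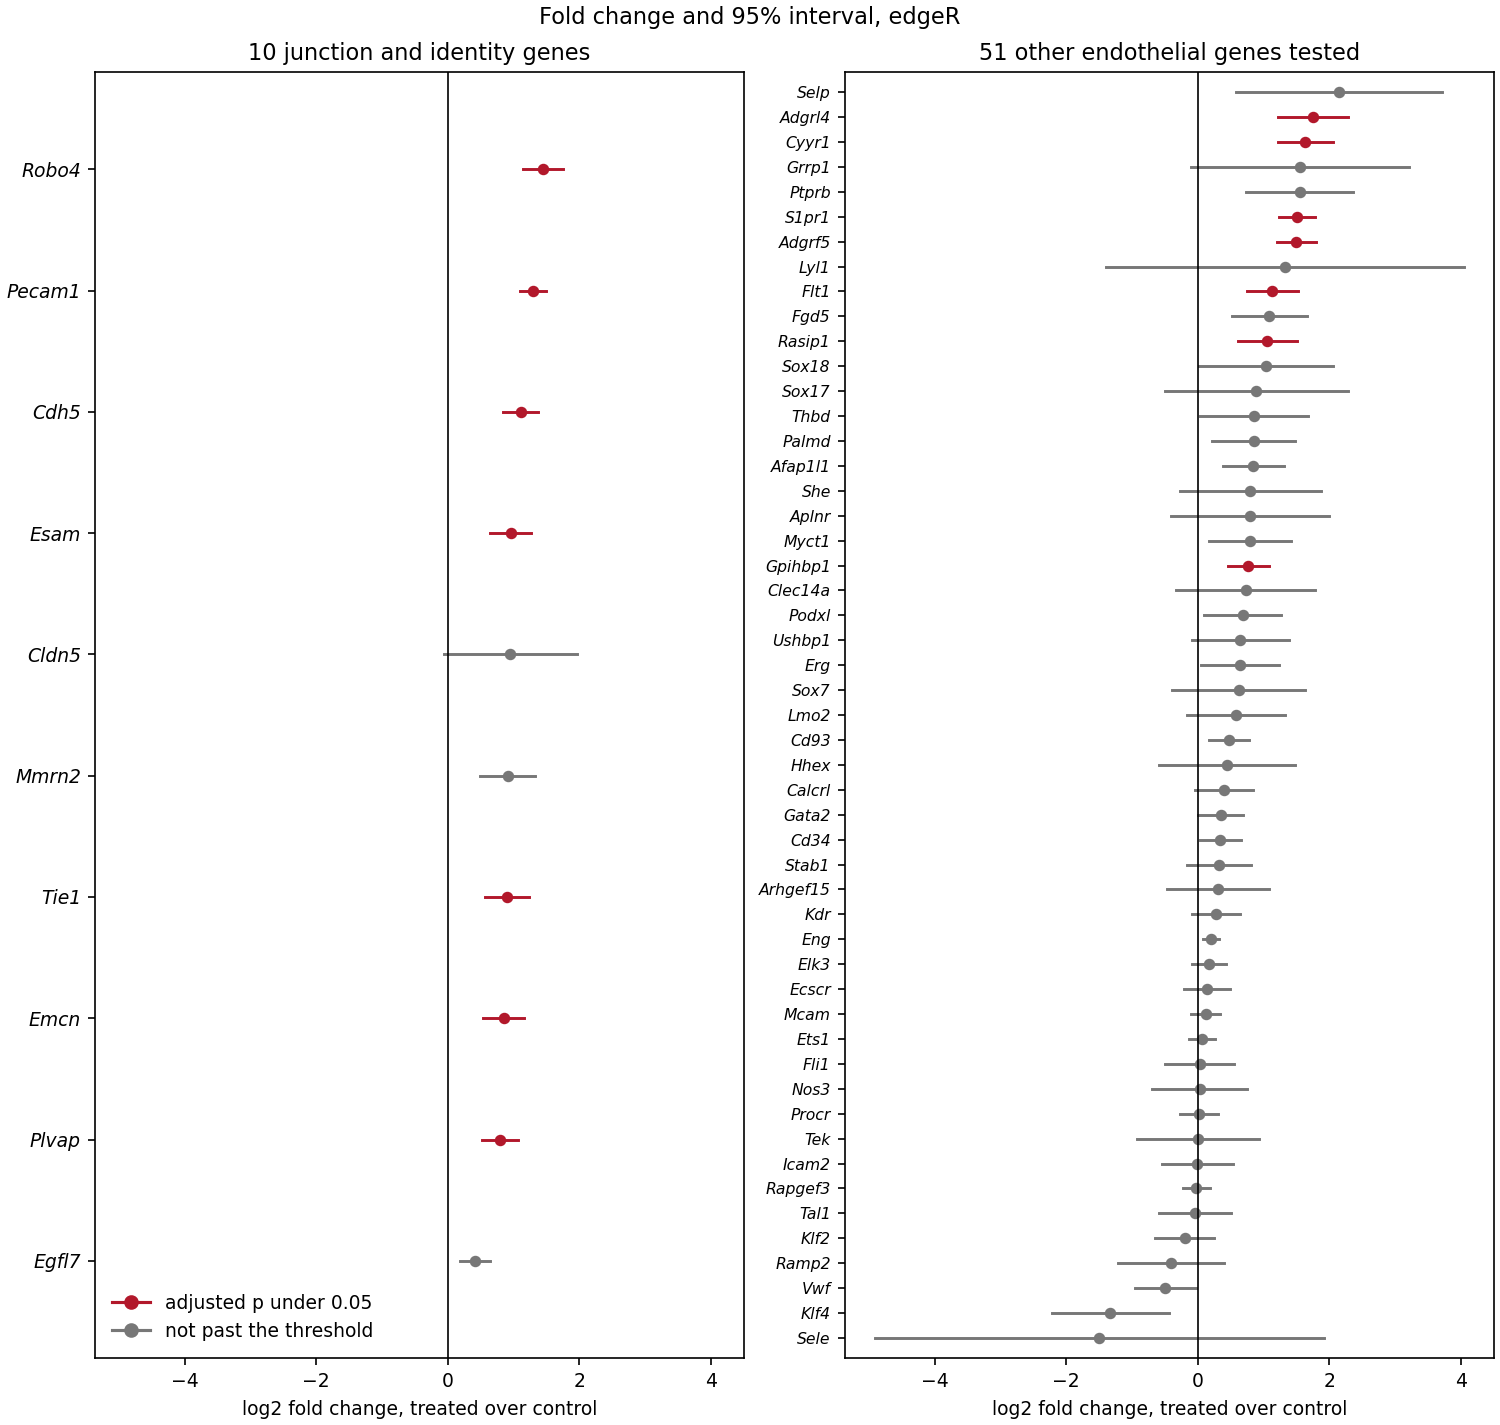
Log2 fold change of treated over control tumours with its 95% interval for the 10 genes (left) and 51 other endothelial genes tested (right), red where the edgeR adjusted p is under 0.05. Intervals of 9 of the 10 genes lie above 0, and that of Cldn5 reaches below it.

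Levels of different genes were compared in FPKM, which is per length. Plvap was the most abundant in both groups, at 19.1 FPKM in treated and 11.1 FPKM in control tumours (means, n = 3 each). Egfl7 followed at 8.51 FPKM in treated and 6.41 FPKM in control tumours, and Cdh5 at 7.56 FPKM in treated and 3.53 FPKM in control tumours. Those 3 held the same places in both groups. Robo4 changed place most, 6th of 10 at 3.02 FPKM in treated tumours and 10th at 1.11 FPKM in control tumours. Pecam1 averaged 5.79 FPKM in treated and 2.36 FPKM in control tumours, and Esam 5.16 FPKM in treated and 2.67 FPKM in control tumours, so that Pecam1 stood above Esam in treated and below it in control tumours. The libraries of Pecam1 and Esam overlapped in treated tumours and were apart in control tumours. Tie1, Cldn5, Mmrn2 and Emcn, the 4 lowest in treated tumours, were at 2.44, 2.44, 2.20 and 2.10 FPKM in treated and 1.31, 1.27, 1.18 and 1.17 FPKM in control tumours, where Robo4 alone was lower, and each neighbour in that order overlapped the next within both groups. Egfl7 and Cdh5 overlapped in treated tumours, as did Emcn and Robo4 in control tumours, and all other neighbours were apart. Genes that were not neighbours by mean could overlap too, as Cldn5 and Robo4 did in both groups.

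**Figure D4:**
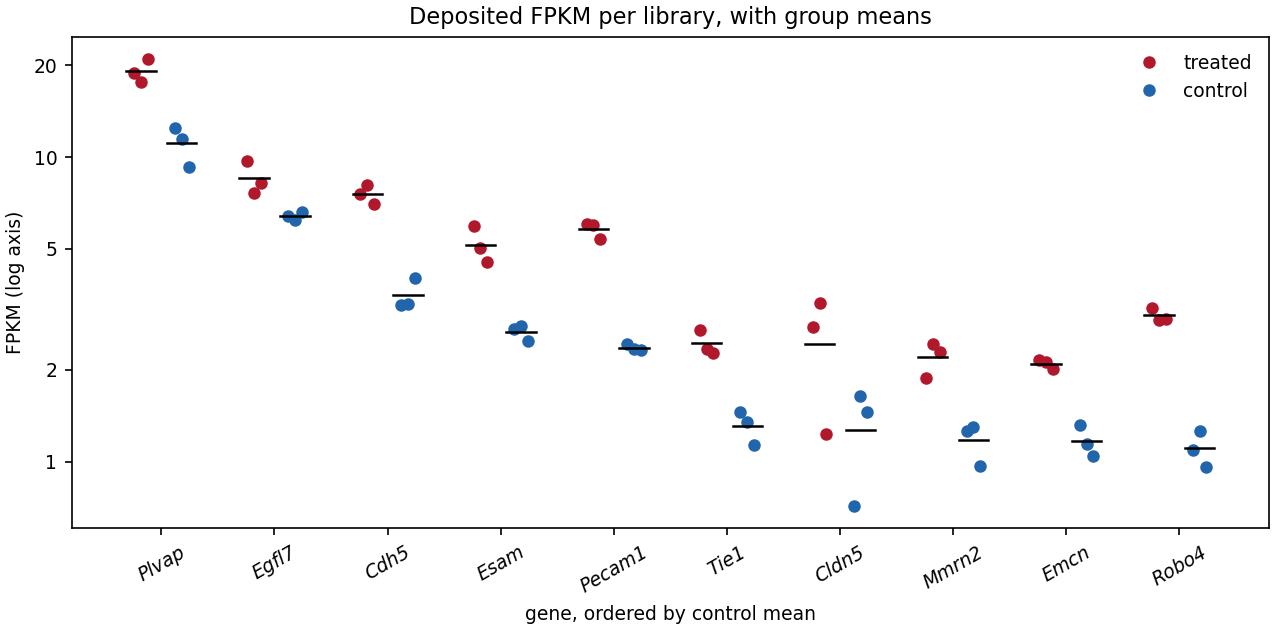
Deposited FPKM of the 10 genes in each library on a log axis, with the group mean as a line, treated left of control and genes ordered by the control mean. Robo4 is last by control mean at 1.11 FPKM, but its treated mean, 3.02 FPKM, stands above those of Tie1, Cldn5, Mmrn2 and Emcn. Cldn5 in treated library 2, at 3.32 FPKM, lies above every treated library of Robo4.

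The levels of the 10 genes were also set against each other in each library, as a description with no test. Against the median level of the other 9 genes in each library on the log2 CPM scale, Robo4 was 0.50 higher in treated than in control tumours. Egfl7 was lower by this measure, with a difference of -0.78, and Plvap, Esam and Emcn differed by -0.39, -0.36 and -0.22, all 5 genes without overlap between the groups. The other 5 genes overlapped, with differences from -0.17 to 0.11. This median is of levels, so the gene in the middle can change between groups, and the differences do not compare fold changes. Esam, at -0.36 here, had a log2 fold change of 0.96, beside a median of 0.93 over the 10 genes. With each gene first set over its own control mean, the median of the 10 genes was 1.07, 1.02 and 0.86 log2 units in treated libraries 1, 2 and 3. The library that stood apart was thus the lowest by a small margin. Of the 10 genes, which together set that median profile, Esam was closest to it, at a root mean square difference of 0.0606 over 6 libraries, and Cldn5 least, at 0.554.

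**Figure D5:**
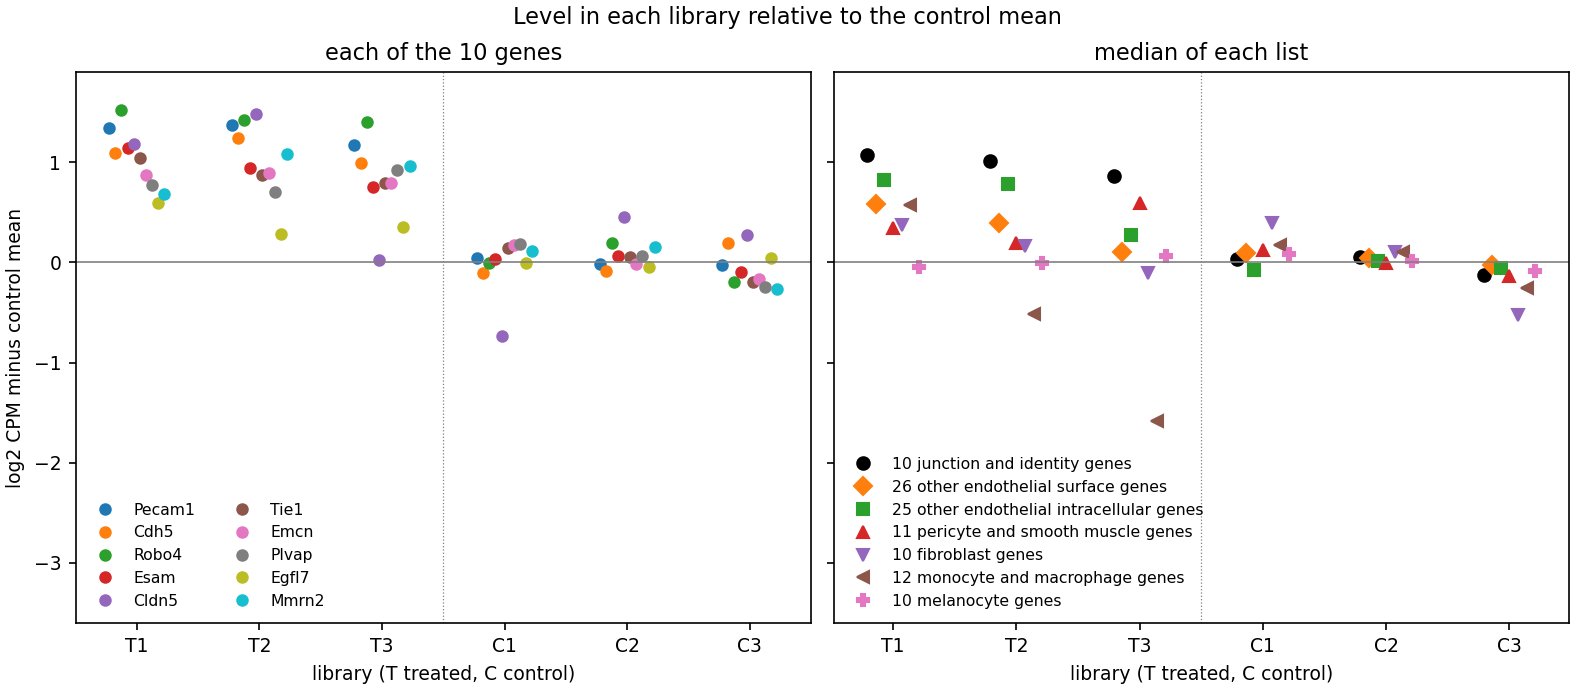
Log2 CPM minus the control mean in each library, for each of the 10 genes (left) and as the median of each marker list (right), treated libraries left of control. The median of the 10 genes is 0.86 to 1.07 in treated libraries, while that of the monocyte and macrophage genes runs from -1.58 in treated library 3 to 0.57 in treated library 1.

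Other genes of the endothelium leaned the same way, and a smaller share of them passed. Of 53 further endothelial genes listed, 51 were tested, and by edgeR 7 rose, beside 1.36% of all tested genes, and none fell. An unadjusted p under 0.05 was found for 23 of the 51, beside 16% of all tested genes. DESeq2 called 13 higher, beside 4.18% of all genes, and 1, Klf4, lower. The 51 genes had a median log2 fold change of 0.58, and 43 of them had a positive one, beside 8920 of all 18049 tested. Treated libraries lay wholly above controls in 19 of the 51, beside 12% of all tested genes. Klf4, a shear-responsive transcription factor, had all treated libraries, at 3.46 to 6.60 CPM, below all controls, at 7.57 to 20.9 CPM. Treated libraries lay wholly below controls in 2026 of all 18049 tested genes. Among genes of surface proteins 5 of 26 rose. S1pr1, the receptor for sphingosine-1-phosphate that steadies endothelial junctions, stood at 21.8 ± 1.9 CPM in treated tumours, against 7.67 ± 0.425 CPM in control tumours (SD, n = 3; log2 fold change 1.51 ± 0.12 SE, edgeR adjusted p = 0.000668). Adgrf5, an adhesion G protein-coupled receptor, averaged 30.6 ± 4.29 CPM in treated tumours, against 10.8 ± 0.809 CPM in control tumours (SD, n = 3; edgeR adjusted p = 0.00112). Adgrl4 (log2 fold change 1.75 ± 0.23 SE), Flt1, which encodes VEGF receptor 1 (1.13 ± 0.17 SE), and Gpihbp1, which anchors lipoprotein lipase in capillaries (0.77 ± 0.13 SE), had edgeR adjusted p of 0.0105, 0.018 and 0.0355. Their calls were lost on leaving out 2, 3 and 6 of the 6 libraries in turn, with adjusted p of up to 0.067, 0.123 and 0.207. S1pr1 and Adgrf5 were called in all 6.

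Several well-known endothelial genes did not pass by edgeR. Eng, the endoglin co-receptor and the most abundant surface gene of the list by CPM, averaged 268 ± 4.88 CPM in treated tumours, against 233 ± 5.08 CPM in control tumours (SD, n = 3), without overlap and with a log2 fold change of 0.20 ± 0.05 SE (edgeR adjusted p = 0.131), and DESeq2 called it higher (adjusted p = 0.0228). Kdr, VEGF receptor 2, had a log2 fold change of 0.28 ± 0.16 SE (edgeR adjusted p = 0.436), and Vwf, the von Willebrand factor of endothelial storage granules, one of -0.49 ± 0.20 SE (edgeR adjusted p = 0.284). Of the intracellular list 2 of 25 rose, of which Cyyr1 was placed there although its product is a membrane protein. Cyyr1, a small membrane protein gene, averaged 6.19 ± 0.156 CPM in treated tumours, against 1.99 ± 0.228 CPM in control tumours (SD, n = 3; log2 fold change 1.64 ± 0.18 SE, edgeR adjusted p = 0.00408) and was called with any library left out. Rasip1, a regulator of small GTPases in vessel lumen formation, averaged 6.15 ± 0.589 CPM in treated tumours, against 2.95 ± 0.488 CPM in control tumours (SD, n = 3; edgeR adjusted p = 0.0429) and was called in none of the 6 fits with a library left out (adjusted p up to 0.152). Fgd5, an exchange factor for CDC42, had a log2 fold change of 1.09 ± 0.25 SE (edgeR adjusted p = 0.0859) and was called higher by DESeq2 (adjusted p = 0.00351) and by limma-voom under quality weights (adjusted p = 0.02). The ETS factor genes Erg (0.64 ± 0.26 SE), Fli1 (0.03 ± 0.23 SE) and Ets1 (0.06 ± 0.08 SE) did not pass (edgeR adjusted p = 0.281, 0.968 and 0.781). Ets1 was the most abundant of the list by CPM, at 456 ± 46.3 CPM in treated tumours, against 436 ± 23.0 CPM in control tumours (SD, n = 3).

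The median of the 10 genes was further above its control mean than that of either endothelial list in every treated library. In levels, the median log2 CPM of the 10 genes minus that of both lists together was 0.65 larger in treated than in control tumours, without overlap. It was 0.43 against the surface list alone and 0.55 against the intracellular list alone. These medians are of levels and depend on which gene lies in the middle, so they do not compare fold changes. The median log2 fold change was 0.93 for the 10 genes and 0.58 for both lists together. Over the control mean the surface list stood at 0.58, 0.39 and 0.10 in treated libraries 1, 2 and 3 and the intracellular list at 0.82, 0.78 and 0.28, so both were lowest in treated library 3. Since the 10 genes were chosen with earlier results of these data known, these differences are given as a description.

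Of 45 genes of proteins that work with these products, F11r and Angpt2 rose and none fell by edgeR, with a median log2 fold change of 0.10. Those 2 of 45 stand beside 1.36% of all tested genes called higher, and an unadjusted p under 0.05, found for 13 of them, beside 16% of all. By DESeq2, 5 were called higher, beside 4.18% of all genes, and 1, Lsr, lower. Of 14 adherens junction partners, which include the catenins, none passed by edgeR and 2 had an unadjusted p under 0.05, a share near that of all genes. Jup, plakoglobin, was the 1 gene of the list called by DESeq2 (adjusted p = 0.00542), and by limma-voom if libraries were weighted by quality (adjusted p = 0.0224), while plain limma-voom called 0. By edgeR Jup came nearest (log2 fold change 0.47 ± 0.11 SE, edgeR adjusted p = 0.0908), then Ccm2 (0.21 ± 0.07 SE, edgeR adjusted p = 0.205) and Nectin2 (0.20 ± 0.11 SE, edgeR adjusted p = 0.434). Ctnnb1, beta-catenin, which most cells of a tumour use, averaged 1630.4 ± 88.3 CPM in treated tumours, against 1728.2 ± 9.21 CPM in control tumours (SD, n = 3; log2 fold change -0.08 ± 0.05 SE, edgeR adjusted p = 0.49). Of 12 tight junction partners tested F11r rose, the gene of junctional adhesion molecule A, at 21.5 ± 3.37 CPM in treated tumours, against 13.1 ± 0.731 CPM in control tumours (SD, n = 3; log2 fold change 0.71 ± 0.13 SE, edgeR adjusted p = 0.049). Its call was kept without treated library 3 and lost without any other library, with an adjusted p of up to 0.234. Lsr, a protein of tricellular contacts, averaged 0.662 ± 0.161 CPM in treated tumours, against 2.03 ± 0.479 CPM in control tumours (SD, n = 3; log2 fold change -1.61 ± 0.32 SE, edgeR adjusted p = 0.056), and was called lower by DESeq2 (adjusted p = 0.00232), by limma-voom under quality weights (adjusted p = 0.0464) and among genes with at least 50 counts in 3 libraries (edgeR adjusted p = 0.0477). Cgnl1, cingulin-like 1, had a log2 fold change of 0.66 ± 0.25 SE (edgeR adjusted p = 0.25). Of the 12 tight junction partners, 5 had an unadjusted p under 0.05, beside 16% of all tested genes.

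Among direct binding partners and ligands of the 10 products 1 of 15 rose by edgeR, beside 1.36% of all tested genes. Of the 15, 4 had an unadjusted p under 0.05, beside 16% of all tested genes. DESeq2 called 2, Angpt2 and Itgb3 (adjusted p of Itgb3 = 0.0156), beside 4.18% of all genes. Angpt2, the endothelial ligand that loosens TIE2 signalling, averaged 66.6 ± 10.3 CPM in treated tumours, against 40.9 ± 1.24 CPM in control tumours (SD, n = 3; log2 fold change 0.70 ± 0.11 SE, edgeR adjusted p = 0.0236), and the call was lost without treated library 2 or any 1 control, with an adjusted p of up to 0.132. Tek, the gene of TIE2 itself, was at 1.47, 1.07 and 0.542 CPM in treated libraries 1, 2 and 3 and at 0.942, 1.16 and 0.965 CPM in control libraries 1, 2 and 3, with no direction that held under all settings (log2 fold change 0.00 ± 0.40 SE, edgeR adjusted p = 0.998). The integrin genes Itgb3 and Itgav had log2 fold changes of 0.42 ± 0.12 SE and 0.10 ± 0.08 SE and the kinase gene Src one of 0.20 ± 0.06 SE (edgeR adjusted p = 0.142, 0.593 and 0.165). The multimerin-2 binders Cd93 and Clec14a had log2 fold changes of 0.48 ± 0.13 SE and 0.73 ± 0.46 SE (edgeR adjusted p = 0.142 and 0.488), and Cd93 was called higher by DESeq2 (adjusted p = 0.0217) and by limma-voom under quality weights (adjusted p = 0.0471). Of 4 gap junction genes none passed by edgeR or limma-voom, and DESeq2 called Gja1. An unadjusted p under 0.05 was found for 2 of the 4, beside 16% of all tested genes. Those 2 were Gja1 (0.47 ± 0.13 SE, edgeR adjusted p = 0.143) and Gjc1 (0.27 ± 0.11 SE, edgeR adjusted p = 0.272). Gja5, near 1 CPM, had -0.15 ± 0.69 SE and a sign that changed between settings (edgeR adjusted p = 0.947).

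Other cells that carry some of these products were read from their own marker lists. Platelets carry PECAM-1 and ESAM, and 9 of 11 platelet genes had a row in the table, summing to 3.85 to 9.93 CPM in treated tumours, against 6.10 to 7.69 CPM in control tumours, with none of 5 tested called. Neutrophils carry PECAM-1 too, and 8 of 10 neutrophil genes with a row summed to 4.61 to 51.3 CPM in treated tumours, against 1.91 to 4.84 CPM in control tumours. The median log2 fold change was 3.48 over 6 tested, of which none was called by edgeR or limma-voom. Of these, 4 had an unadjusted p under 0.05, beside 16% of all tested genes. DESeq2 called 3, S100a8, S100a9 and Retnlg, beside 4.18% of all genes. Of 12 monocyte and macrophage genes none was called by edgeR and 1, Ly6c2, by DESeq2, with sums of 74.6 to 277.8 CPM in treated tumours, against 163 to 225 CPM in control tumours and a median log2 fold change of -0.25. None of these genes with a row was at 0 in all 6 libraries, and the part of platelets, neutrophils, monocytes and macrophages in the Pecam1 and Esam results was not tested. Treated library 1 had the highest sum of all 6 libraries for each of these 3 lists. Of 7 lymphatic endothelial genes none was called, with a median log2 fold change of 0.06.

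The list for cells around the vessel wall was also a little higher in treated tumours. Of 11 pericyte and smooth muscle genes 1 rose by edgeR, beside 1.36% of all tested genes. There were 4 with an unadjusted p under 0.05, beside 16% of all tested genes. Treated libraries lay wholly above controls in 6, beside 12% of all tested genes. Of these 11 genes 10 had a positive log2 fold change, beside 8920 of all 18049 tested. Their median log2 fold change was 0.36, with sums of 205 to 235 CPM in treated tumours, against 176 to 207 CPM in control tumours. Kcnj8, a potassium channel gene of pericytes, averaged 6.66 ± 1.05 CPM in treated tumours, against 2.97 ± 0.443 CPM in control tumours (SD, n = 3; log2 fold change 1.16 ± 0.20 SE, edgeR adjusted p = 0.0355). Its call was kept without treated library 1 and lost without any other library, with an adjusted p of up to 0.194. DESeq2 and limma-voom under quality weights also called Abcc9, which encodes the partner subunit of that channel (log2 fold change 0.84 ± 0.17 SE, edgeR adjusted p = 0.0629). None of 10 fibroblast genes was called, with sums of 530 to 611 CPM in treated tumours, against 336 to 629 CPM in control tumours. Of 9 epithelial genes 2 were tested and none was called, with sums of 74.8, 2.25 and 1.67 CPM in treated libraries 1, 2 and 3, against 0.916 to 3.41 CPM in control tumours. Treated library 1 alone held keratinocyte keratins in number, with 2739 counts of Krt14 and 1841 of Krt5, where the other libraries had 0 to 6 of either. Without it 5 of the 10 endothelial genes were called, beside 1.24% of all genes. An unadjusted p under 0.05 was found for 0 of 5 platelet, 4 of 6 neutrophil and 2 of 12 monocyte and macrophage genes. The same held for 2 of 7 lymphatic, 1 of 10 fibroblast and 1 of 2 epithelial genes tested, beside 16% of all tested genes. Neither edgeR, DESeq2 nor limma-voom called any gene of the platelet, lymphatic, fibroblast, epithelial or pigment cell lists.

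The genes most like the median profile of the 10 were found among 11313 others that averaged at least 1 on the log2 CPM scale, by the root mean square difference over 6 libraries. The nearest were Pcdh1, a protocadherin (0.0951), Rnf31, a ubiquitin ligase subunit (0.0978), Rasip1 (0.109), Trim26 (0.112), Trim56 (0.115), Cdh13, T-cadherin (0.117), Col4a1, a chain of basement membrane collagen (0.123), and Hap1 (0.125). The 10 genes themselves, which set that median, lay between 0.0606 and 0.554. Col4a1 averaged 334 ± 24.6 CPM in treated tumours, against 168 ± 7.70 CPM in control tumours (SD, n = 3). These genes were chosen for this pattern, so their levels are a description. The likeness rests on 6 libraries in 2 groups, and any gene near 2-fold higher in treated tumours with little spread would score well on it.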

How the data were processed

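Per the labels' protocols, poly(A) RNA of 6 tumour samples was made into dUTP-marked libraries and sequenced as paired reads of 150 bp. Fastp, StringTie and edgeR are named in the submitters' processing notes, and no source used here states the aligner, build or strand setting. The authors deposited raw counts and FPKM per gene and library in 1 table, per the file headers. FPKM stayed in a constant ratio to counts within 1% for 99.8 to 100.0% of 12046 genes. Of the identifiers, 99.7% are in GENCODE M21 (GRCm38), and 9 of 10 members have the same span there (not Egfl7).

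The counts were tested by edgeR 4.0.16 in R 4.3.3 (filterByExpr, minimum count 10, minimum total 15; TMM; glmQLFTest on group, all 6 libraries, two-sided), with limma 3.58.1 and DESeq2 1.42.0 as alternatives, after tests on simulated data. Of rows sharing a symbol the most abundant was kept. CPM are TMM-scaled. Members and lists were chosen with earlier results of these data known. Named are all members, and in each endothelial and partner list called genes, the 3 smallest p and the most abundant. One gene that this rule names is not reported here. Other cell lists show called genes and sums. Kdr, Vwf, Erg, Tek, Cd93 and Clec14a were added for their role, genes next to Robo4, Plvap and Egfl7 for their position, and Klf4, Fli1, Abcc9, S100a8, S100a9, Retnlg, Ly6c2, Krt5 and Krt14 after their values were seen.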

Additional observations from a re-analysis of the deposited data

How the results depend on the processing

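Pecam1, Cdh5 and Robo4 passed in all 13 alternatives and Cldn5 in none. Beside 7 members called, the alternatives without a library left out gave 5 to 9, apart from 3 with the replicate block, and leaving out each library in turn gave 3 to 7. The shares of all genes called higher were 0.58 to 4.18%, 0.68% and 0.50 to 1.64%, in that order. Other endothelial genes called (7) became 13 by DESeq2 and 4 with the block, and 3 to 6 on leaving out a library. Junction partners called higher (2) became 5 by DESeq2, 1 by limma-voom, 0 without a filter and 0 with the block, and 0 to 2 on leaving out a library, while partners called lower (0) became 1, Lsr, by DESeq2, 1 among genes with at least 50 counts in 3 libraries and 1 by limma-voom with sample quality weights. Same-numbered libraries correlated at 0.086, -0.164 and -0.107 in their deviations from the group means. No label says that the numbers pair the samples, and 3 libraries a group are too few for this check to decide it. Over all genes, 246 were called higher and 45 lower, and the alternatives ran from 94 to 754 higher and from 3 to 367 lower, with DESeq2 giving the most in both directions. Tek (0.00) turned to -0.0064 without TMM, -0.11 by limma-voom, -0.28 with quality weights and -0.094 with the block, and ran from -0.34 to 0.31 on leaving out a library. Gja5 (-0.15) turned to 0.23 by limma-voom and 0.21 with the block, and ran from -0.63 to 0.44 on leaving out a library. The causes were not tested. With 3 libraries a group, the spread between libraries limits precision, Cldn5 included.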
